A study of Homo sapiens with 4 samples.

Results

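The potassium, sodium, calcium, TRP (transient receptor potential) and CLC (chloride) channel genes were taken from the RNA-sequencing table by the start of their symbol, which had to be KCN, SCN with a digit, SCNN, CACN, TRPC, TRPM or TRPV with a digit, or CLCN, with antisense entries left out. This gave 48 of the 13165 genes of the table, namely 22 coding entries for potassium channels and their partners, 4 for sodium channels, 7 for calcium channel subunits, 8 with a TRP symbol, 6 of the CLC family and the noncoding entry KCNQ5-IT1. The rule uses no measured value, but it was set with earlier results of these data known, among them the fall of KCNIP1. By the same symbols, GENCODE release 29 annotates 172 protein-coding genes, of which 47 are among the 48, and the rest are not analysed here.

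The cells were TPC1, a line established from a human papillary thyroid carcinoma. One group, TPC1-Vector, carried the empty retroviral vector, and the other, TPC1-INAVA, carried the vector with INAVA, which the sample labels name by its older symbol C1orf106. Both were selected with puromycin as stable populations, and each was sequenced as 2 libraries, for which the labels do not say whether they came from separate cultures. The deposited table gives 1 value per gene and group, as FPKM, which counts sequenced fragments per length of the transcript and per total of mapped fragments. The values therefore have no SD, no test was possible and no difference has a replicate check. An effect of INAVA and a difference between 2 separately selected populations cannot be told apart in this design, nor can fewer cells that make an mRNA from less of it per cell. INAVA itself was at 7.96 FPKM with the vector alone and 123 FPKM in TPC1-INAVA. Where a pair of values is given below, TPC1-Vector comes first. Of 10 markers of thyroid follicular cells, 2 were among the genes analysed, PAX8 at 60.1 and 55.7 FPKM and FOXE1 at 5.26 and 5.89 FPKM, and 1 of 6 markers of excitable cells, SNAP25, was at 0.214 and 0.323 FPKM. Of 6 markers of simple epithelium 3 were present, KRT8 at 23.4 and 10.5 FPKM, KRT18 at 140 and 212 FPKM and KRT7 at 1.97 and 2.01 FPKM. KRT8 and KRT18 have the same deposited position, so fragments may have been divided between them. Of the markers of other cells, 3 of 6 fibroblast genes were present and summed to 3.56 and 2.19 FPKM. Of 3 leukocyte genes 1 was present, CD68 at 5.76 and 8.67 FPKM, which was no lower than FOXE1 in either group. Of 3 endothelial genes 0 were present. The part of such cells in the results was not tested.

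Ion channels are membrane proteins that let chosen ions pass down their gradients. Potassium channels set the resting voltage of a cell, calcium and TRP channels let calcium in as a signal, and CLC proteins carry chloride at the surface or exchange it for protons in endosomes and lysosomes. Pore-forming subunits often act with auxiliary subunits that control their gating and their way to the surface. In cells that are not excitable, such as thyroid epithelium, channels serve volume control, secretion, calcium entry and migration.

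KCNIP1 stood apart from the other channel genes. It encodes a small calcium-binding protein that joins the Kv4 voltage-gated potassium channels and changes their inactivation, and it was at 17.0 and 3.89 FPKM, 4.37-fold lower in TPC1-INAVA. KCNAB2, a cytoplasmic beta subunit of Kv1 potassium channels, was 2.23-fold lower, at 3.68 and 1.65 FPKM. TRPM2, a calcium-permeable channel opened by ADP-ribose and by oxidative stress, was 2.06-fold higher, at 1.41 and 2.91 FPKM. The most abundant channel gene, KCNMA1, was lower by less, at 158 and 116 FPKM.

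On GRCh38, the table places KCNIP1 on chromosome 5 (170353487 to 170736632), TRPM2 on chromosome 21 (44353601 to 44443081) and KCNAB2 on chromosome 1 (5862808 to 6101193). The span given for KCNAB2 is also that of NPHP4, and the most upstream RefSeq start of KCNAB2 lies at 5992676. All of these channel genes are on the forward strand in GENCODE release 29. GENCODE release 29 gives KCNIP1 10 transcripts. RefSeq gives 2 start sites for KCNIP1 and 3 for TRPM2, and since the table holds 1 value per gene, it does not tell which start the mRNA came from. To show how far the alternative starts differ, the 250 bases before both starts of KCNIP1 and before the most upstream start of TRPM2, which lies before the deposited span of the gene, are printed from 5′ to 3′, as RefSeq gives them on GRCh38.p14. None of the 3 windows overlaps an annotated exon. Capitals mark matches on either strand to 6 motifs, and neighbouring matches can run into each other. The motifs were TATAAA for the TATA box, CCAAT for the CCAAT box, GGGCGG for the GC box, TGANTCA for an AP-1 site, TGACGTCA for the cAMP response element and CACGTG for the E-box.
KCNIP1, start at 170353487, window chr5:170353237-170353486, forward strand: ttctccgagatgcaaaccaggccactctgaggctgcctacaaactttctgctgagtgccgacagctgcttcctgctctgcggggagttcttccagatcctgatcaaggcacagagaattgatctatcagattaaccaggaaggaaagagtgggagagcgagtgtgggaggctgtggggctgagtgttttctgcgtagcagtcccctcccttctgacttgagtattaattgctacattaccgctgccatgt
KCNIP1, start at 170504020, window chr5:170503770-170504019, forward strand: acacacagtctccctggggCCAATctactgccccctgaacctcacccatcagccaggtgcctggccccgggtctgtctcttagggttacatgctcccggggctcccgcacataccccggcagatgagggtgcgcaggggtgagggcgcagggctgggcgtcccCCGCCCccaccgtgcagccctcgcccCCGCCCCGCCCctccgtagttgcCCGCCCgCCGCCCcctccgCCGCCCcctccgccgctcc
TRPM2, start at 44350141, window chr21:44349891-44350140, forward strand: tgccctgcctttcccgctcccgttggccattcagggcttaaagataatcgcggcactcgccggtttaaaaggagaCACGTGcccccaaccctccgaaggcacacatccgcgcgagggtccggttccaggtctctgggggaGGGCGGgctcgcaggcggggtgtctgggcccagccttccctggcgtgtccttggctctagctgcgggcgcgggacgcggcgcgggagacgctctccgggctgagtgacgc
The upstream window of KCNIP1 had a GC content of 52% and none of these motifs, whereas its downstream window had a GC content of 74%, 6 GC boxes and 1 CCAAT box. The TRPM2 window had a GC content of 68.4%, 1 GC box and 1 E-box.

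Promoter windows were found for 40 of the 48 channel genes, and 1 window per gene, the first that RefSeq lists, was compared with those of 27305 genes. In this paragraph all genes means these 27305, which were not limited to genes of the expression table. The 40 were all in that table, so the sets differ in more than gene family. What this contributes to the differences below was not tested. For KCNIP1 the compared window is the upstream one printed above. For TRPM2 it is not the printed one but that before the start at 44353621. That window overlaps annotated exons and has a GC content of 57.6% and none of the 6 motifs. The median GC content before the start was 68% in the channel genes and 58% in all genes. A GC box was present in 28 of the 40, against 42.3% of all genes, and a CCAAT box in 10, against 33%. A TATA box was present in 1 (11.1% of all genes), an AP-1 site in 2 (6.60%), a cAMP response element in 1 (1.77%) and an E-box in 5 (6.49%). These matches describe the letters of the windows and were not tested.

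**Figure D1:**
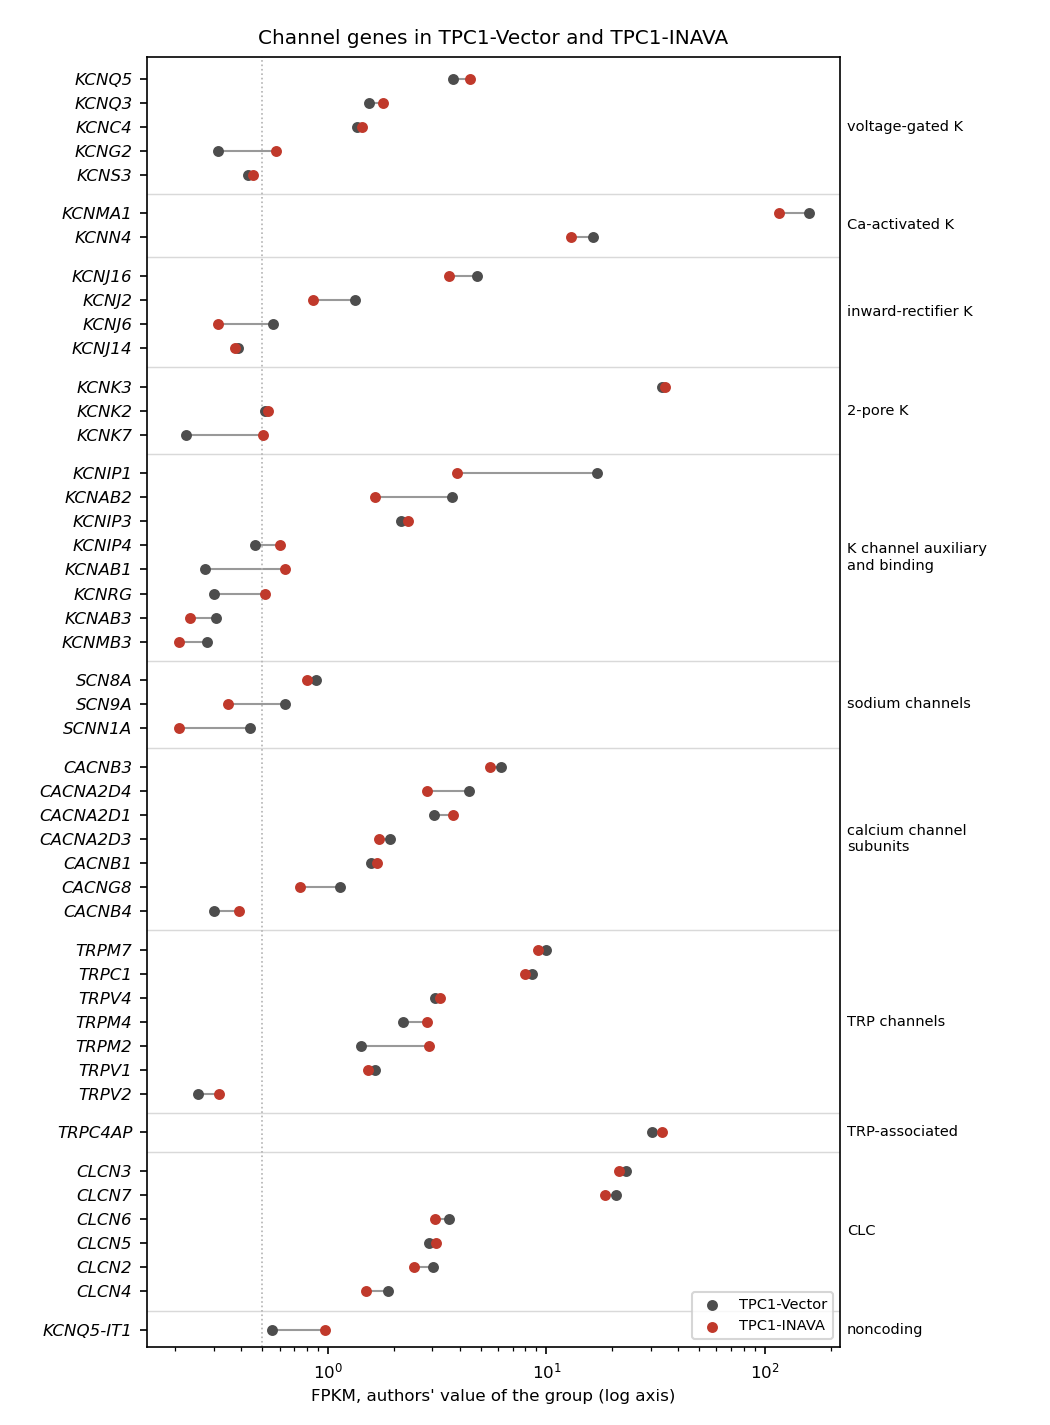
FPKM values of 47 of the 48 channel genes in TPC1-Vector (grey) and TPC1-INAVA (red), on a log axis, grouped by family and ordered by mean level, with a dotted line at 0.5 FPKM. Each point is the authors' single value of a group, without error bars. KCNMA1 lies farthest right in both groups, and the widest gap on the log axis is that of KCNIP1.

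The levels of the channel genes spanned a wide range. KCNMA1 made up 40.3% of the summed FPKM of the 48 genes in TPC1-Vector (393 FPKM in all) and 35.2% in TPC1-INAVA (329 FPKM). Averaged over the groups, 4 of the 48 reached 20 FPKM, 11 reached 5 FPKM, 25 were under 2 FPKM and 18 were under 1 FPKM. Without KCNMA1 and KCNIP1, the sums were 217 and 210 FPKM.

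To compare changes, a gene was kept if its 2 values averaged 0.5 FPKM or more, which left 12305 of all genes and 35 of the 48 channel genes. A log2 fold change is the difference of log2(FPKM + 0.5), TPC1-INAVA minus TPC1-Vector, which understates the change of weak genes, and a gene is called here when the difference on that scale is at least 1.5-fold. Of the 35 channel genes, 1 was called higher (TRPM2, log2 fold change 0.83), a share of 2.86% beside 2.24% of all genes kept. Called lower were 2 (KCNIP1, -1.99, and KCNAB2, -0.96), a share of 5.71% beside 1.45% of all genes kept. The fall of KCNIP1 was known when the set was fixed. Without KCNIP1, 1 of 34 was called lower and 1 higher, 2.94% in each direction. At 2-fold, KCNIP1 was the only channel gene called, as 1 lower and 0 higher, with 0.244% of all genes kept lower and 0.61% higher. With 0.1 added in place of 0.5, 2 of the 35 were called higher beside 3.06% of all genes kept, and 3 lower beside 2.35%. With nothing added, a setting chosen after the values were seen, 2 were called higher beside 3.36% and 5 lower beside 2.69%. The 35 had a median log2 fold change of -0.10, with 20 lower and 15 higher, against 0.0033 over all genes kept, of which 49.2% were lower. Of the 35, 20 lay within 0.2 of 0.

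KCNIP1 had the fourth lowest log2 fold change of the 12305 genes kept. The 3 entries below it were SNORA57 at 1.57e+06 and 0 FPKM, SNORA74A at 11.5 and 0 FPKM, and MT1E at 3.83 and 0.448 FPKM. For each level of expression, the range of log2 fold changes over all genes was taken between the percentiles 5 and 95, so that 5% of genes lie beyond each bound. Between 5 and 20 FPKM this range was -0.34 to 0.36 (4405 genes), and KCNIP1 lay below it. Between 2 and 5 FPKM it was -0.44 to 0.45 (1823 genes), with KCNAB2 and CACNA2D4 below and TRPM2 above. At 20 FPKM and over it was -0.29 to 0.34 (4179 genes), and KCNMA1, at -0.45, lay below. The other 30 channel genes kept lay within the range of their level. Under 2 FPKM the range was wider, -0.47 to 0.64 between 0.5 and 1 FPKM (883 genes) and -0.48 to 0.61 between 1 and 2 FPKM (1015 genes).

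**Figure D2:**
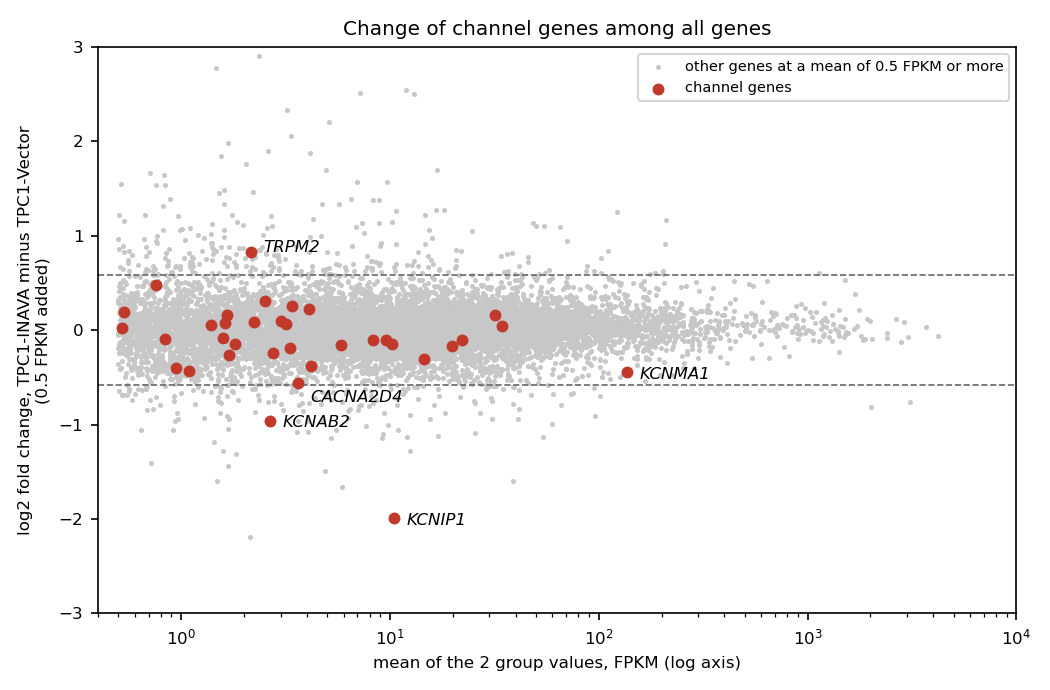
Log2 fold change, TPC1-INAVA minus TPC1-Vector with 0.5 FPKM added, against the mean FPKM of the groups on a log axis, for the 35 channel genes kept (red) and the other genes kept (grey). Dashed lines mark 1.5-fold in either direction, and 6 other genes lie outside the vertical axis, which ends 3 units to either side of 0. KCNIP1 lies at -1.99, below KCNAB2 at -0.96, and TRPM2 is the only channel gene above the upper line.

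Among the voltage-gated potassium channels, the 3 genes kept were each slightly higher in TPC1-INAVA and none was called. KCNQ5, which with KCNQ3 can form the slowly activating M-type channels, was at 3.73 and 4.45 FPKM. KCNQ3 was at 1.54 and 1.78 FPKM. KCNC4, a fast Kv3 channel, was at 1.36 and 1.43 FPKM. The modifier subunits, which do not conduct alone, were both under the filter, KCNG2 at 0.315 and 0.576 FPKM and KCNS3 at 0.430 and 0.455 FPKM. No Kv1 (KCNA) or Kv4 (KCND) pore gene is among the 48.

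Both calcium-activated potassium channels were lower, and neither was called. KCNMA1, the pore of the large-conductance BK channel, which opens with calcium and voltage together, was 1.36-fold lower, with a log2 fold change of -0.45. KCNN4, the intermediate-conductance channel gated through calmodulin, was at 16.2 and 13.0 FPKM, with a log2 fold change of -0.31. KCNMB3, a beta subunit of the BK channel, was at 0.280 and 0.207 FPKM, under the filter.

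The inward-rectifier channels, which pass potassium more easily into the cell than out of it and hold the resting voltage, were each lower by the ratio of their values. KCNJ16 was at 4.81 and 3.58 FPKM, and KCNJ2 at 1.33 and 0.857 FPKM. These genes lie 33.9 kb apart on chromosome 17 (KCNJ16 from 70075225 to 70135605, KCNJ2 from 70169535 to 70180042), with log2 fold changes of -0.38 and -0.43, while the median of the genes within 5 Mb was -0.017 for each. KCNJ6, a subunit of the channels opened by G proteins, was at 0.562 and 0.312 FPKM, and KCNJ14 at 0.389 and 0.376 FPKM, both under the filter. None of the 4 was called.

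The 2-pore-domain channels, which carry background potassium current, differed little where they were well expressed. KCNK3 (TASK-1), closed by extracellular acid, was the second most abundant channel gene, at 33.8 and 34.9 FPKM with a log2 fold change of 0.044. KCNK2 (TREK-1), opened by membrane stretch, was at 0.516 and 0.532 FPKM. KCNK7 was at 0.224 and 0.506 FPKM, under the filter.

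The 2 largest log2 fold changes, those of KCNIP1 and KCNAB2, were among the auxiliary and binding proteins of potassium channels. The median of the 13 auxiliary and other genes kept was -0.14, and that of the 22 pore-forming genes -0.0955. Of the other KCNIP genes, KCNIP3, whose protein is also known as the transcriptional repressor DREAM, was at 2.17 and 2.32 FPKM, and KCNIP4 at 0.464 and 0.603 FPKM. Their log2 fold changes, 0.083 and 0.19, were small and of the opposite sign to that of KCNIP1. In TPC1-Vector KCNIP1 was thus the most abundant gene of its family by FPKM, and in TPC1-INAVA it still was, by a smaller margin.

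The beta subunits of Kv1 channels have the fold of aldo-keto reductases, and KCNAB2 was the only one kept. KCNAB1 was at 0.274 and 0.635 FPKM and KCNAB3 at 0.306 and 0.234 FPKM, both under the filter. No gene of the table had its larger value under 0.278 FPKM, and the smaller values of KCNAB1 and KCNAB3 lie under this level. Both are present only through the group where they are higher, so their directions are not read. KCNAB2 has the same deposited position as NPHP4, which was at 3.26 and 3.77 FPKM, so fragments may have been divided between these genes. KCNRG, a soluble protein that hinders the assembly of potassium channels, was at 0.302 and 0.516 FPKM and shares its position with 3 other entries. KCNMB1 is annotated within the span of KCNIP1, and what overlapping genes contributed to either value was not tested.

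The sodium channel genes described here, 3 of the 4, were weakly expressed. The voltage-gated pore genes were SCN8A, at 0.882 and 0.799 FPKM, and SCN9A, at 0.639 and 0.347 FPKM and under the filter. SCNN1A, a subunit of the epithelial sodium channel, was at 0.439 and 0.207 FPKM and shares its position with LTBR, which was at 57.3 and 59.5 FPKM. SCN8A and SCN9A were lower in TPC1-INAVA by their ratio, and none of the 3 was called. The smaller value of SCNN1A lies under 0.278 FPKM, the lowest larger value of any gene of the table. It is thus present only through TPC1-Vector, and its direction is not read.

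The 7 calcium channel entries were all auxiliary subunits, and no CACNA1 pore gene is among the 48. CACNB3, a cytoplasmic beta subunit that brings the pore to the membrane, was at 6.21 and 5.51 FPKM, CACNB1 at 1.57 and 1.68 FPKM and CACNB4 at 0.30 and 0.393 FPKM. The alpha2delta subunits, which sit outside the membrane, went different ways. CACNA2D4 was 1.56-fold lower, at 4.43 and 2.85 FPKM, but with 0.5 added its log2 fold change was -0.56, just short of 1.5-fold. CACNA2D1, the target of gabapentin, was at 3.05 and 3.73 FPKM (0.25), and CACNA2D3 was at 1.93 and 1.70 FPKM (-0.14). CACNG8, better known as an auxiliary subunit of AMPA receptors, was at 1.14 and 0.744 FPKM (-0.40).

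The TRP channels spanned the range from no difference to the 2.06-fold of TRPM2. TRPM7, a magnesium-permeable channel with its own kinase domain, was at 9.91 and 9.17 FPKM, and TRPC1, a subunit of receptor-operated and store-operated cation channels, at 8.57 and 7.96 FPKM. TRPM4, a calcium-activated channel for monovalent cations, was at 2.20 and 2.84 FPKM, with a log2 fold change of 0.31. This was the highest log2 fold change of the TRP channels after TRPM2, and it was not called. TRPV4, which responds to swelling, was at 3.09 and 3.25 FPKM, TRPV1, the capsaicin receptor, at 1.65 and 1.52 FPKM, and TRPV2 at 0.254 and 0.316 FPKM. TRPC4AP, an adaptor protein and no channel, was at 30.3 and 33.8 FPKM.

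In the CLC family, 5 of 6 genes were lower by a little and none was called. The exchangers of endosomes and lysosomes, CLCN3 at 23.1 and 21.4 FPKM and CLCN7 at 20.9 and 18.6 FPKM, were the most abundant. CLCN6 was at 3.59 and 3.08 FPKM, CLCN4 at 1.89 and 1.5 FPKM, and CLCN5 at 2.90 and 3.13 FPKM, the one gene that was higher. CLCN2, the channel of the family at the cell surface, was at 3.03 and 2.49 FPKM. The log2 fold changes of the 6 ran from -0.26 to 0.097, with a median of -0.18.

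Channel genes were also set beside their neighbours, since long stretches of some chromosomes were shifted in one direction. For each gene, the genes within 5 Mb on each side that averaged 1 FPKM or more were taken, 11 to 184 of them, and their median log2 fold change was computed. KCNIP1 had neighbours at 0.017 (22 genes), KCNAB2 at 0.024 (81 genes) and TRPM2 at 0.0016 (42 genes), so the differences of all 3 were as large after subtraction, at -2.01, -0.98 and 0.83. KCNMA1 lies on chromosome 10 (76869601 to 77637819), where 46 of 48 neighbours were lower with a median of -0.31, and it was at -0.13 relative to that median. CLCN2, on chromosome 3 (184335929 to 184361651), was at -0.24 where 43 of 50 neighbours were lower with a median of -0.30. For the other 33 channel genes kept, the neighbours had a median within 0.2 of 0. After subtraction KCNQ5-IT1 also passed 1.5-fold upwards. What the shift of the neighbourhood contributes to KCNMA1 and CLCN2 was not tested.

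**Figure D3:**
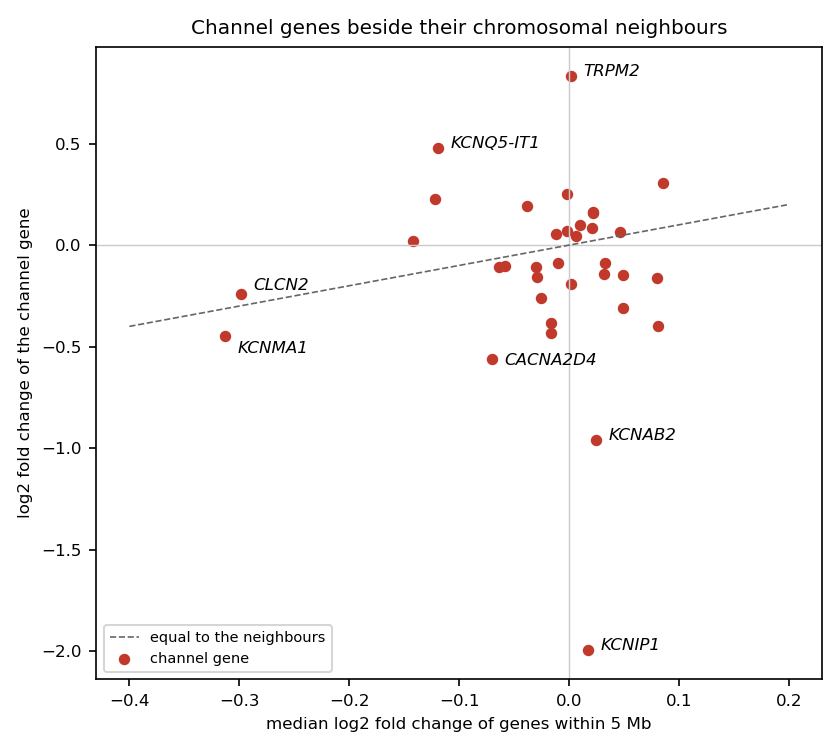
Log2 fold change of each of the 35 channel genes kept against the median log2 fold change of the genes within 5 Mb, with a dashed line where both are equal and grey lines at 0. KCNMA1 and CLCN2 lie near the line at the left, whereas KCNIP1, KCNAB2 and TRPM2 lie far from it with neighbours near 0.

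Lists of partners, other channels, pumps and regulators gave 81 further genes kept, of which 3 were called higher and 3 lower, 3.7% in each direction beside 2.24% and 1.45% of all genes kept. Their median log2 fold change was -0.029. Of the Kv4 complex list, which holds the Kv4 pores, the KCNIP genes and the DPP subunits, 3 of 9 genes were kept, all of them KCNIP genes, and 1 (KCNIP1) was called. Of 15 calcium sensors of the calmodulin type, 8 were kept and 1 was called lower. This was TESC, a regulator of the sodium-proton exchanger, at 9.27 and 2.58 FPKM, 3.59-fold lower, with neighbours at 0.010. CALM2 and CALM3, which encode calmodulin, had log2 fold changes of 0.14 and 0.088, and NCS1, a sensor of the same family as KCNIP1, was at 0.11.

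Of 29 genes for calcium stores and pumps, 18 were kept and 2 were called lower, among them the mitochondrial calcium uniporter MCU, at 42.1 and 27.2 FPKM. It lies on chromosome 10 (72692131 to 72887694), where 66 of 70 neighbours were lower with a median of -0.31, and less of the difference remained after subtraction, -0.31. The median of the list was -0.14, with 11 genes lower and 7 higher. Of 10 genes for store-operated calcium entry, 8 were kept and none was called, with a range from -0.18 to 0.31.

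Of 13 sodium-potassium pump genes, 5 were kept and 2 were called higher. These were the small pump regulators FXYD5, at 75.3 and 129 FPKM, and FXYD2, at 13.4 and 21.1 FPKM. Of 23 channel regulators, 11 were kept and SGK1, a kinase that raises the activity of epithelial sodium channels and other transporters, was called higher, at 2.33 and 4.76 FPKM. Of the other cation channels 16 of 36 were kept, and of the other anion channels and CLC partners 15 of 32, with 0 called in both lists and medians of -0.10 and -0.048.

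**Figure D4:**
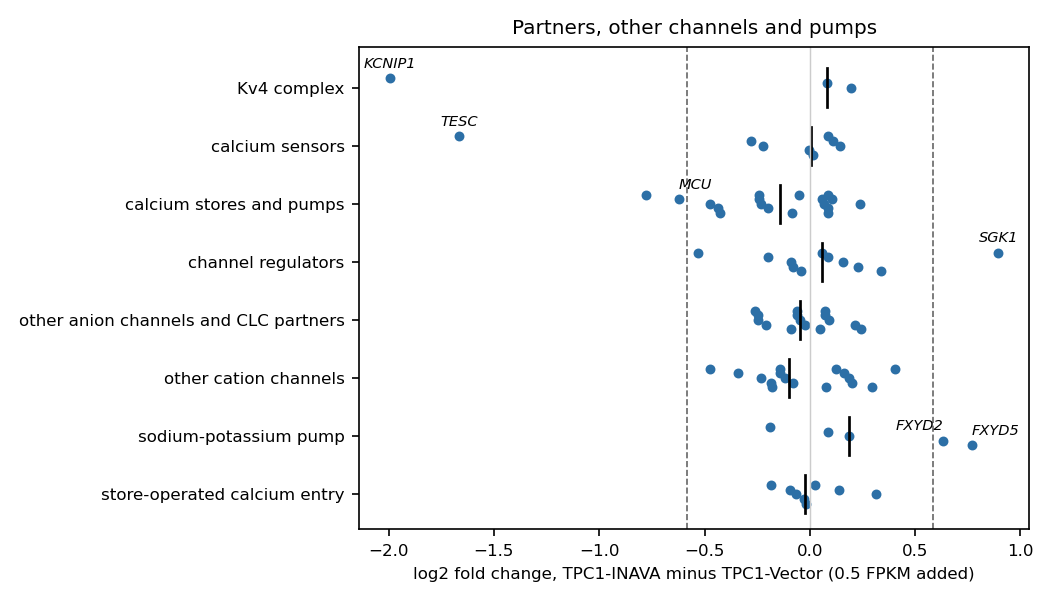
Log2 fold change of the genes kept from 8 lists of partners, other channels, pumps and regulators, with 1 point per gene, a black line at the median of each list and dashed lines at 1.5-fold. KCNIP1 and TESC lie far to the left, and SGK1, FXYD5 and FXYD2 to the right.

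Of the 13 channel genes under the filter, 7 were higher and 6 lower. Without a pseudocount, 4 of them differed at least 1.5-fold upwards (KCNAB1, KCNK7, KCNG2 and KCNRG) and 3 downwards (KCNJ6, SCN9A and SCNN1A). Of all 860 genes under the filter, 24.7% differed as much upwards and 19.1% downwards, so such ratios were common at these levels. No gene of the table had its larger value under 0.278 FPKM. The smaller values of KCNAB1, KCNK7 and SCNN1A lie under this level, so these genes are present only through the group where they are higher. Their ratios are therefore no sign of a difference. KCNAB1 had the largest ratio upwards, 2.31-fold, and SCNN1A the largest downwards, 2.12-fold. The highest single value among the 13 was 0.639 FPKM, in a range where the number of fragments behind a value is smallest and is not known here.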

How the data were processed

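RNA from 4 libraries, 2 of TPC1-Vector and 2 of TPC1-INAVA, was sequenced. The authors deposited 1 FPKM value per gene and group, and the submitters' processing notes name CASAVA, Cufflinks 2.1.1, Cuffdiff and hg38. The aligner and annotation are not given in the sources used here. The table also holds the authors' log2 ratio, direction, p-value and q-value per gene, which were not used. Depth per library is unknown, so no counting error can be given.

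Genes were kept if their 2 values averaged 0.5 FPKM or more. Differences of log2(FPKM + 0.5) were called at 1.5-fold. No test was run. Of the 48 channel genes 47 are described, and a few items are not reported here. Those to be given in full were the called genes, the 10 most abundant, the most abundant of each family, the Kv4 list and called genes of the other lists. Members and lists were chosen with earlier results of these data known. Deposited starts were raised by 1, since of 11670 genes matched to RefSeq 2598 then had the same start, against 313 before. All 48 positions overlapped the GENCODE release 29 gene of that name. Other entries share the deposited position of 9 channel genes, so their values may be uncertain. The code for the fold calls and neighbour medians was checked on imposed shifts without noise. That check gives no error rate for the calls. Alternatives were pseudocounts of 0.1 and 1, no filter, a filter at 1 FPKM, median-of-ratios and upper-quartile scaling, 2-fold, pore-forming genes alone and subtraction of neighbours. Python 3.11.15, numpy 2.4.6, pandas 2.3.3 and matplotlib 3.10.9 were used.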

Additional observations from a re-analysis of the deposited data

How the results depend on the processing

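No paired analysis was possible because the table has 1 value per group, and for the same reason no library could be left out. With a pseudocount of 0.1, channel genes called higher went from 1 to 2 (KCNQ5-IT1 in addition), those called lower from 2 to 3 (CACNA2D4 in addition) and the companion genes called lower from 3 to 5. Of all genes kept, 3.06% were then called higher and 2.35% lower. Without a pseudocount, a choice made after seeing the data, 2 channel genes were called higher and 5 lower (KCNJ2 and CACNG8 besides CACNA2D4), and 6 companion genes lower, with 3.36% of all genes kept called higher and 2.69% lower. A smaller pseudocount shrinks weak genes less. At 2-fold the channel genes were 0 higher and 1 lower, and the companion genes 0 higher and 1 lower. The shares of all genes kept were 0.61% higher and 0.244% lower. The median of the channel genes ranged from -0.11 to -0.088 over the alternatives, those without auxiliary subunits and without KCNMA1 and CLCN2 included, the latter chosen after seeing the data. KCNIP1 ranged from -2.13 to -1.88, KCNAB2 from -1.16 to -0.82 and TRPM2 from 0.70 to 1.04. Of 167 values of 21 named genes, 0 changed sign and 1 crossed 1.5-fold, that of MCU after subtraction of neighbours (-0.31). These values include those under other filters, which cannot change the value of a single gene. They also include those under rescaling, where the ratio of the group factors was 0.997 or 0.996. KCNQ5-IT1, CACNA2D4, KCNJ2 and CACNG8, which crossed with a smaller or no pseudocount, are not among the 21. The count is therefore no measure of stability. The unknown depth limits what can be said of weak genes.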

Other observations

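KCNQ1OT1, an antisense entry of the KCNQ1 region and so no channel gene here, was at 1.19 FPKM with the vector alone and 1.3 FPKM with INAVA. KCNQ5-IT1, a noncoding entry with the deposited position of KCNQ5, was at 0.552 and 0.965 FPKM, with a log2 fold change of 0.48 beside 0.23 for KCNQ5 and a median of -0.12 for the genes within 5 Mb.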
